A study of Mus musculus with 9 samples.

Results

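The proteasome genes described here are the 39 genes of the deposited table whose symbols run from Psma, Psmb, Psmc, Psmd or Psme to a number, leaving out the immunoproteasome subunits Psmb8, Psmb9 and Psmb10. They are 39 of 13593 genes in the table and were chosen by name, not by any measured value. By role they comprise 8 alpha-ring genes, 7 beta-ring genes, 6 ATPases, 8 lid subunits, 3 further base subunits, 3 assembly chaperones with Psmd names, and 4 activators. All 39 passed the filter on low counts in both model fits.

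The proteasome is the barrel-shaped protease that breaks down ubiquitin-tagged proteins in the cytosol and nucleus. Its core particle is a stack of alpha rings, which gate the entrance, around beta rings, which hold the cutting sites. The regulatory particle caps the core: its base carries a ring of ATPases that unfold substrates, and its lid removes the ubiquitin chain. Activators of the PA28 and PA200 type (Psme genes) can cap the core instead, without ATP. In macrophages the proteasome also supplies peptides for presentation on MHC class I and degrades the inhibitor of NF-kB.

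The study measured messenger RNA by sequencing in mouse bone marrow-derived macrophages, cells that grow out of marrow when given the growth factors released by L929 fibroblasts. Marrow came from wild-type C57BL/6 mice aged 6 weeks and was grown for 7 days with 15% L929 supernatant. The macrophages then received 4 nM of bovine serum albumin (BSA, the control protein), CX3CL1 or CCL26 for 4 h, with 3 libraries per treatment. The series compares the responses to these chemokines, which its title names as ligands of the receptor CX3CR1. Nothing in the labels ties the libraries of a group to different mice or dishes, so every p-value below reflects the variation among libraries, part or all of which may be technical.

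Depth ran from 16923982 to 23198324 counts per library. CX3CL1 replicate 1 (label B1) stood apart: 1193 genes had no count there, where 80 to 170 had none elsewhere, and its TMM scaling factor of 0.849 lay under the range of 0.999 to 1.05 of the remaining 8. All 10 macrophage markers searched for were present, with summed levels of 24273 to 30603 CPM (the usual depth-scaled count, with library sizes corrected by TMM) in 8 libraries and 42461 CPM in CX3CL1 replicate 1. Most of that sum is Lyz2 (lysozyme), at 36699 CPM in CX3CL1 replicate 1 and 18017 to 23731 CPM elsewhere; the other 9 markers summed to 5762 CPM there, below the 6256 to 6938 CPM of the 8 libraries. The 7 neutrophil markers in the table summed to 64.1 to 82.8 CPM in the same 8 libraries and to 179 CPM in CX3CL1 replicate 1, and Ly6g was not among the genes listed. Most of the 179 CPM was S100a8 and S100a9, at 67.7 and 69.3 CPM, with short transcripts of 486 and 519 bases. Elane, low in all libraries, had no count in CX3CL1 replicate 1. Each comparison is therefore given from all 9 libraries and from the 8 libraries without CX3CL1 replicate 1. Both chemokine groups are compared with the same 3 BSA libraries.

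The sequences upstream of the start site are shown for the members called between CCL26 and BSA that have an entry in RefSeq's promoter table, followed by 2 catalytic subunits that carry a Nfe2l1-type motif close to the start. Each is the 150 bases ending just before the RefSeq start site on GRCm38.p6, read 5′ to 3′ on the gene's strand. Capitals mark CCAAT or its reverse complement ATTGG, the box bound by the factor NF-Y, and TGACNNNGC, the core of the antioxidant response element.
Psmd10, chrX:140956712-140956861, minus strand: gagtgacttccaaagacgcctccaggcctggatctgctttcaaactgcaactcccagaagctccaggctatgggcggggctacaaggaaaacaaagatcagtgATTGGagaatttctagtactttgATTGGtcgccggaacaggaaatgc
Psma5, chr3:108256776-108256925, plus strand: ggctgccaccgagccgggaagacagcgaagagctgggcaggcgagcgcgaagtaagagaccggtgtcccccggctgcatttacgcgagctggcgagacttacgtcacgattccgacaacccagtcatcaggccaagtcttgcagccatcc
Psmc6, chr14:45329674-45329823, plus strand: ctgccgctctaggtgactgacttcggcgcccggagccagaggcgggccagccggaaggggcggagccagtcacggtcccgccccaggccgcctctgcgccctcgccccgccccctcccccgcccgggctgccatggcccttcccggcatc
Psmb5, chr14:54617996-54618145, minus strand: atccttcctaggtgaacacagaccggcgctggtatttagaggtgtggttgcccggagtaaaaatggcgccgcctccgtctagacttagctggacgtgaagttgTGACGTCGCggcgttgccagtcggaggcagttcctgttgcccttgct
Psmb6, chr11:70525207-70525356, plus strand: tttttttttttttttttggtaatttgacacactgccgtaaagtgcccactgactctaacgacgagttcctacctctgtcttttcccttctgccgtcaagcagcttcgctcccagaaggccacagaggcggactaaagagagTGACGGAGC

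Of the 39 members, 32 had a promoter entry, with 35 entries in all. In the 250 bases before the start, counting both strands, CCAAT was found in 34.29% of the members' entries and in 33.85% of all 32851 entries in the table. TGACNNNGC was found in 14.29% of the members' entries, those of Psmb5, Psmb6, Psmc6, Psmd9 and Psmd12, against 10.16% of all entries. An interferon-type element, GAAA followed by any 2 bases and GAAA again, was found in 8.571% against 2.977%, which is 3 entries, those of Psmb3, Psmd4 and Psmd9. In Psmd10, CCAAT on either strand began at positions -230, -47 and -24 from the start, and in Psmc6 TGACNNNGC began at position -227, outside the stretch shown. These are matches of letters and not sites of binding.

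To place the members on one scale, CPM was divided by the length in kilobases of the principal transcript in GENCODE M21, giving RPKM, a level that can be compared between genes. In BSA-treated macrophages the 38 members other than Psma8 had a median of 81.0 RPKM and spanned 18.9-fold. The highest were the lid subunit Psmd8, at 231 ± 4.78 RPKM (SD, n = 3), and the caspase-like catalytic subunit Psmb6, at 226 ± 11.0 RPKM. The lowest were the assembly chaperones Psmd5, at 12.2 ± 1.06 RPKM, Psmd9, at 13.6 ± 1.25 RPKM, and Psmd10, at 23.8 ± 1.06 RPKM. These chaperones help build the base and leave before the particle is complete.

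Psma8, the testis-specific relative of Psma7, was at 0.428 ± 0.0581 RPKM in BSA libraries, while Psma7 was at 138 ± 2.59 RPKM. Class medians in BSA libraries were 86.6 RPKM for the alpha ring (Psma8 included), 113 for the beta ring, 83.7 for the ATPases, 57.5 for the lid and 59.5 for the activators. Among the catalytic subunits, Psmb6 exceeded the trypsin-like subunit Psmb7 at 65.8 ± 6.65 RPKM and the chymotrypsin-like subunit Psmb5 at 60.3 ± 3.55 RPKM. The gap between Psmb5 and Psmb7 was smaller than the SD of Psmb7. The ATPases, which unfold the substrate, ran from Psmc4 at 71.6 ± 1.86 RPKM to Psmc1 at 156 ± 7.62 RPKM. The base subunits Psmd1 and Psmd2 stood at 59.5 ± 1.16 and 135 ± 2.08 RPKM, and the lowest lid subunit was Psmd11 at 41.9 ± 2.13 RPKM. Among the activators, the PA28 alpha and beta genes Psme1 and Psme2 stood at 80.1 ± 0.883 and 126 ± 10.7 RPKM. The PA28 gamma gene Psme3 was at 38.8 ± 2.54 RPKM and the PA200 gene Psme4 at 24.7 ± 0.665 RPKM. These levels depend on which length is used. With the summed length of all exons in place of the principal transcript the median over 38 members was 41.3 RPKM, and Spearman's rho between both sets of levels was 0.819. Psmc1 was then highest at 129 RPKM, followed by Psmd8 at 116, with Psmb6 at 96.4 RPKM. Psmd5, at 7.41 RPKM, and Psmd9, at 4.88 RPKM, remained the lowest of the 38, but Psmd3, Psmb7, Psme4 and Psmd11 (18.7 to 22.6 RPKM) lay below Psmd10 at 23.17 RPKM. Psmb7 was at 22.3 RPKM and Psmb5 at 60.3 RPKM on that scale. Class medians were 43.0 for the alpha ring (Psma8 included), 60.3 for the beta ring, 60.1 for the ATPases, 34.5 for the lid and 37.7 for the activators. Psme2 has a near-identical copy, Psme2b, between which reads could be divided, so its values are uncertain.

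**Figure D1:**
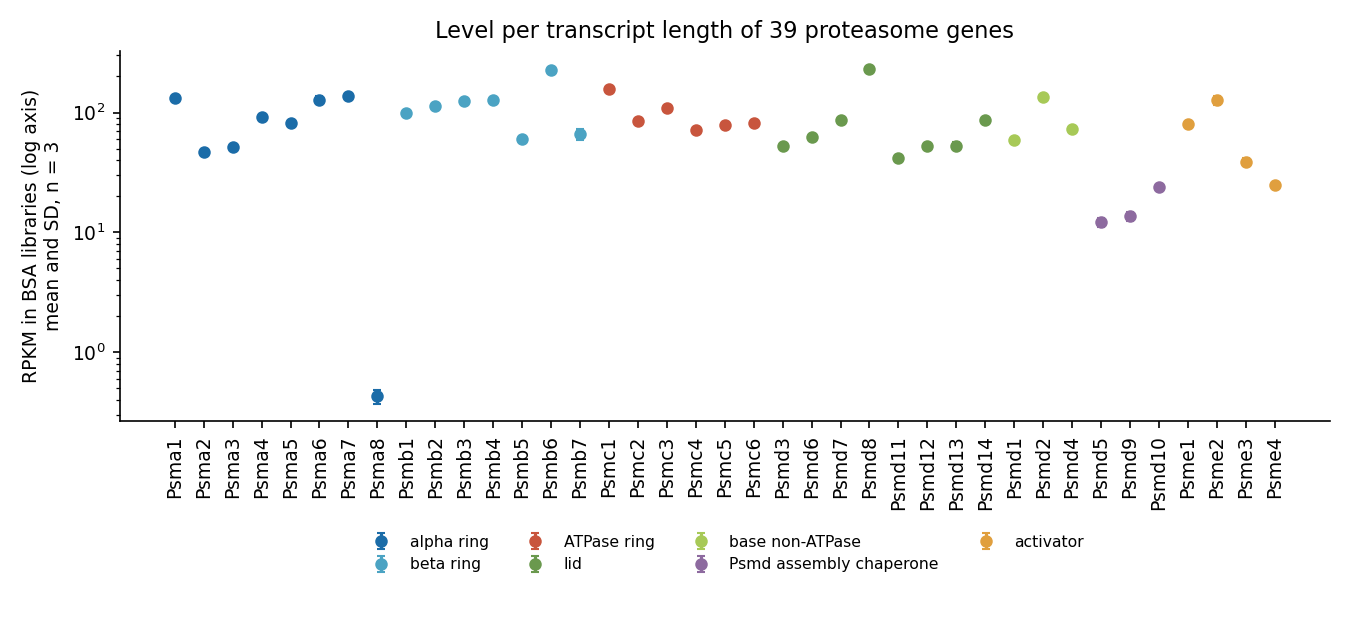
Level per transcript length of the 39 proteasome genes in BSA-treated macrophages, as mean and SD of 3 libraries in RPKM on a log axis, with classes in colours. Psma8 lies near 0.428 RPKM, the assembly chaperones Psmd5, Psmd9 and Psmd10 between 12.2 and 23.8 RPKM, and Psmd8 and Psmb6 are highest.

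The order of the members was nearly the same in the 8 libraries: Spearman's rho of RPKM between pairs of libraries, over 38 genes, ran from 0.974 to 0.994. With CX3CL1 replicate 1 it ran from 0.879 to 0.911. These are correlations across genes that share libraries and lengths. The median coefficient of variation within groups was 4.40% for the members in 8 libraries, against 9.62% for all genes tested, and 35.0% against 22.8% with CX3CL1 replicate 1 included. The median member was thus more even than the median gene among 8 libraries and less even once the ninth was added. The members and all genes were not matched for level. Across the 8 libraries the highest value was between 1.08 times the lowest (Psmd1, the large scaffold of the base) and 1.37 times (Psme2), with Psma8 at 2.74 times.

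In CX3CL1 replicate 1 nearly every proteasome gene departed from all other libraries. The members together took 0.873% of the counts there, against 0.507% to 0.529% in the other 8 libraries. Psmb5 was at 177 CPM in CX3CL1 replicate 1, and between 46.6 and 57.5 CPM in the other 8 libraries. Psme2 was at 433 CPM there and between 110 and 151 CPM elsewhere. The ubiquitin receptor Psmd4 was at 310 CPM and between 89.1 and 111 CPM elsewhere. For these 3 genes the gap between that library and the rest exceeded the range of the rest.

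The direction was not shared by all members. The base scaffold Psmd1 was at 96.1 CPM in CX3CL1 replicate 1 and between 175 and 189 CPM in the other 8 libraries. The activator Psme4 was at 83.7 CPM against 138 to 165 CPM. The activator Psme3, at 87.2 CPM, was below the other libraries' 97.1 to 111 CPM. Psma8 had no count in CX3CL1 replicate 1 and 12 to 32 counts elsewhere; set at a floor of 3 counts in that library, it was at least 4.86-fold lower than the median of the others, a bound that covers counting error only. Psmd11, a lid subunit at 121 CPM, and Psmd2, a base subunit at 415 CPM, were close to the other libraries (112 to 132 and 367 to 418 CPM).

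In all, 33 of 39 members were above all 8 other libraries in CX3CL1 replicate 1, where 36.2% of all genes tested were. A further 4 were below all 8, where 42.7% of all genes were. The shift, taken as log2(CPM + 0.5) minus the median of the other 8 libraries, had a median of 1.08 over the members and of -0.098 over all genes. By class the median shift was 1.55 for the beta ring, 1.19 for the alpha ring, 1.14 for the ATPases and 0.95 for the lid. It was 0.46 for the 4 activators, which ranged from -0.90 for Psme4 to 1.79 for Psme2, and 0.076 for Psmd1, Psmd2 and Psmd4. Scaled by total counts without TMM factors, the members' median was 0.83 and that of all genes -0.34. Then 33 members were above and 6 below all others. With DESeq2 size factors 34 were above and 4 below.

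**Figure D2:**
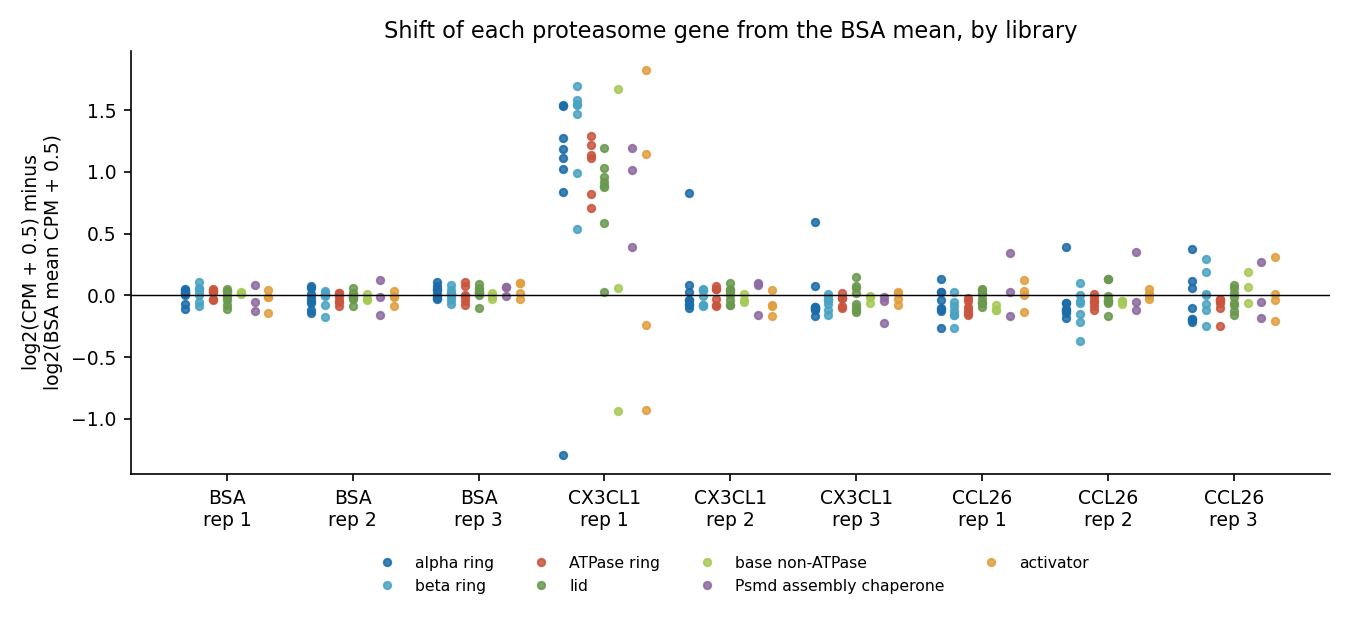
Each point is 1 proteasome gene in 1 library, as log2(CPM + 0.5) minus the log2 of the BSA mean plus 0.5, with classes in colours. In CX3CL1 replicate 1 most genes lie well above 0 and Psma8, Psmd1, Psme3 and Psme4 below, while in the other 8 libraries nearly all points lie close to 0.

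The size and sign of that shift moved with transcript length. Spearman's rho between the shift and the length of the principal transcript was -0.601 over the 39 members, -0.614 without Psma8, and -0.584 over 12905 genes. With the summed length of all exons it was -0.440 over the members and -0.497 over all genes. All 18 members with transcripts up to 1500 bases were above all other libraries, as were 71.3% of all genes in that band. Of the 12 members of over 1500 to 2500 bases, 11 were above and 1 was below, against 53.9% and 21.4% of all genes. Of the 9 members over 2500 bases, 4 were above and 3 below, against 17.2% and 61.7% of all genes. In these bands, shortest first, the median shift was 1.30, 0.95 and 0.076 for the members. For all genes it was 0.96, 0.34 and -0.54. Psme4, at 6491 bases, had the longest transcript of the members and Psmb3, at 766 bases, the shortest. The part of transcript length, RNA quality or treatment in this library's values was not tested.

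**Figure D3:**
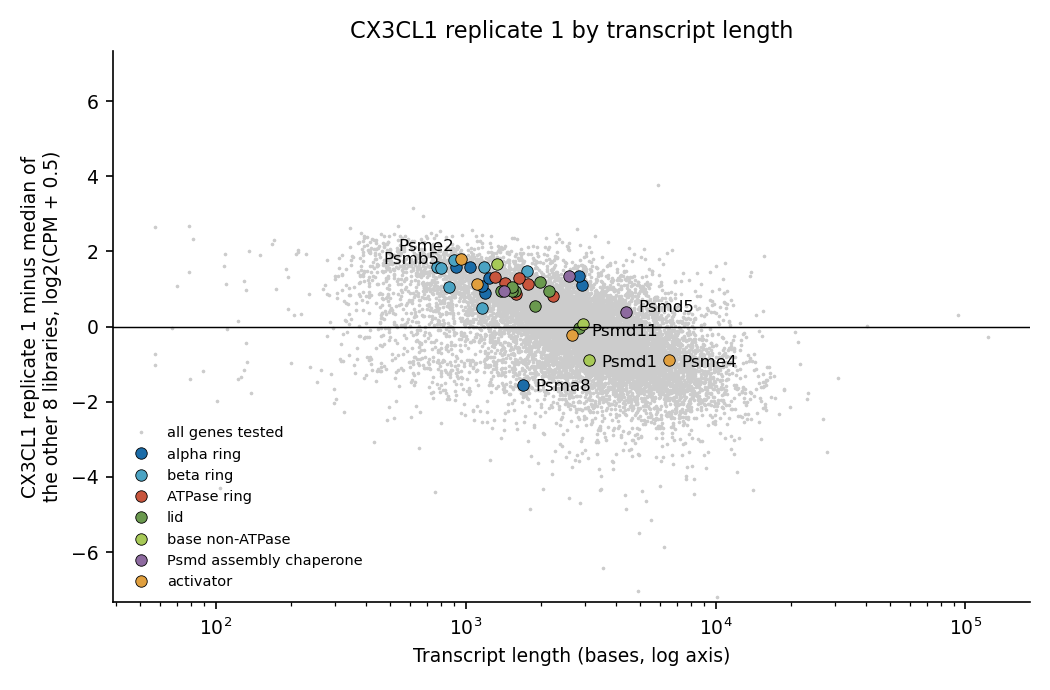
Shift of each gene in CX3CL1 replicate 1 from the median of the other 8 libraries (log2 of CPM + 0.5) against the length of its principal transcript on a log axis, with all genes tested in grey and the proteasome classes in colours. The grey cloud falls with length. Short members such as Psme2 and Psmb5 lie near 1.8 and the long Psme4 at -0.90, but Psmd9 (2597 bases) and Psma2 (2911 bases) lie at 1.36 and 1.10.

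The first comparison asks how CX3CL1 changes these genes. With all 9 libraries none of the 39 members passed edgeR's quasi-likelihood test between CX3CL1 and BSA (Benjamini-Hochberg adjusted p under 0.05), and 0% of all genes did. None had an unadjusted p under 0.05 either, where 3.14% of all genes did. DESeq2 and limma-voom called 0 members each, and 0 of all genes. The median log2 fold change was 0.44 over the members, and -0.0051 over all genes. By class it was 0.52 over the 15 core genes (15 of 15 positive), 0.48 over the 6 ATPases, 0.36 over the lid and 0.17 over the activators. Of all 12915 genes tested, 6383 were positive. The smallest p of the members was that of Psme2, with a log2 fold change of 0.90 (SE 0.438, edgeR adjusted p = 0.711). Its CX3CL1 libraries read 433, 125 and 123 CPM and its BSA libraries 110, 125 and 130 CPM, so CX3CL1 replicate 1 was high and the other 2 lay within the BSA range.

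Without CX3CL1 replicate 1 the median log2 fold change of the members was -0.031, in place of 0.44 with it. It was -0.056 over the core genes, -0.0039 over the ATPases, -0.020 over the lid and -0.060 over the activators. Again 0 members passed edgeR's test, against 0.332% of all genes. DESeq2 and limma-voom called 0 members among 95 and 64 genes called. At an unadjusted p under 0.05 there was 1 of 39 members, Psmd11, a lid subunit, where 7.48% of all genes were. Psmd11 was at 124, 112 and 121 CPM with BSA, and at 128 and 132 CPM in CX3CL1 replicates 2 and 3. The groups did not overlap, and the log2 fold change was 0.13 (SE 0.0607, edgeR adjusted p = 0.664).

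The intervals show how much change these 8 libraries leave room for. The 95% intervals of 38 members, all but Psma8, lay within 1.5-fold in either direction. The widest reached a log2 fold change of -0.40, for the assembly chaperone Psmd9. Psmd9 was at 37.5, 31.6 and 37.0 CPM with BSA, and at 31.7 and 30.3 CPM in CX3CL1 replicates 2 and 3. These groups overlapped, and the log2 fold change was -0.19 (SE 0.102, edgeR adjusted p = 0.707). Psma8, with 0.770, 0.612 and 0.793 CPM against 1.68 and 1.35 CPM, had a log2 fold change of 1.06 (SE 0.551, adjusted p = 0.707) and an interval up to 2.19. Psma2, an alpha subunit, had -0.12 (SE 0.0668, adjusted p = 0.729). Over the members, 3 higher and 11 lower genes did not overlap between the groups, where 12.6% and 13.2% of all genes did not. With 9 libraries 5 of the 38 intervals lay within 1.5-fold.

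The second comparison asks how CCL26 changes these genes. With CCL26 a single proteasome gene was higher than with BSA and 3 were lower, all by less than 1.5-fold, once CX3CL1 replicate 1 was left out. The gene that rose was Psmd10, the assembly chaperone gankyrin. Those that fell were Psmb2, a non-catalytic beta subunit, Psma5, an alpha subunit, and Psmc6, an ATPase of the base. These 4 of 39 members stand beside 19% of all genes tested, 9.74% higher and 9.26% lower, so a smaller share of the members passed than of genes at large. No lid, base scaffold or activator gene passed.

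Psmd10 was at 32.7, 33.8 and 35.7 CPM with BSA and at 43.3, 43.4 and 41.1 CPM with CCL26. All 3 CCL26 libraries were above all BSA libraries. The log2 fold change was 0.33 (SE 0.0828, edgeR adjusted p = 0.00565), which is 1.26-fold. On GRCm38 (GENCODE M21) Psmd10 lies at chrX:140948429-140956728.

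Psmb2 was at 93.4, 99.6 and 98.4 CPM with BSA and at 80.8, 87.4 and 81.8 CPM with CCL26. The groups did not overlap, CCL26 being lower. The log2 fold change was -0.22 (SE 0.0603, edgeR adjusted p = 0.0114). Psmb2 lies at chr4:126677630-126709714.

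Psma5 was at 103, 97.1 and 104 CPM with BSA and at 84.2, 91.8 and 87.5 CPM with CCL26. Every CCL26 library was below every BSA library. The log2 fold change was -0.21 (SE 0.0585, edgeR adjusted p = 0.0137). Psma5 lies at chr3:108256926-108279974, where it shares 60 exon bases with the antisense gene 1700010K24Rik.

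Psmc6 was at 190, 185 and 174 CPM with BSA and at 166, 169 and 154 CPM with CCL26. CCL26 was lower without overlap. The log2 fold change was -0.17 (SE 0.0501, edgeR adjusted p = 0.0203). Psmc6 lies at chr14:45329788-45349705.

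**Figure D4:**
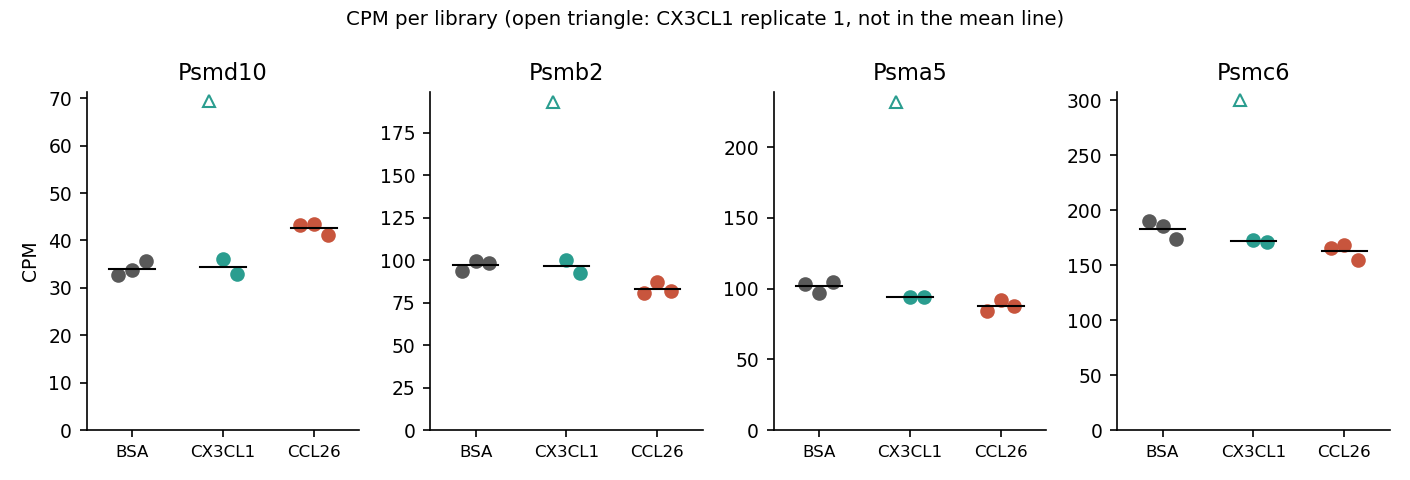
CPM per library of Psmd10, Psmb2, Psma5 and Psmc6 by treatment, with lines at the mean and an open triangle for CX3CL1 replicate 1, which is left out of the mean. The 3 CCL26 points lie above the BSA points for Psmd10 and below them for the other 3 genes, and the triangle lies above all.

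Psmd10 stayed past the threshold in all 15 alternatives run on this fit, with adjusted p from 0.00194 to 0.0332. Psmb2 lost the call without BSA replicate 2 or CCL26 replicate 1 (adjusted p 0.0631 and 0.0542), Psma5 without BSA replicate 1, BSA replicate 3 or CCL26 replicate 1 (0.057, 0.0695 and 0.0724), and Psmc6 without BSA replicate 1 or 2 (0.116 and 0.0836), so that without BSA replicate 1, BSA replicate 2 or CCL26 replicate 1 only 1 member was lower.

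Over all members the median log2 fold change with CCL26 was -0.046, against 0.0082 over all genes. Of the members 28 of 39 were negative, as were 6437 of all 13245 genes tested. The core genes had a median of -0.087 (12 of 15 negative), the ATPases -0.060 (6 of 6), the lid -0.027 (5 of 8) and the activators 0.014 (1 of 4). Median transcript lengths were 1220 bases for the alpha ring, 899 for the beta ring, 1613.5 for the ATPases, 1742.5 for the lid and 1888 for the activators. The differences between classes, and the part of transcript length in them, were not tested. At an unadjusted p under 0.05 there were 12 of 39 members, 10 of them lower, which is near the share of all genes, 30.2%. The 3 CCL26 libraries did not overlap with the 3 BSA libraries for 11 lower and 3 higher members of 39, where 16% and 16.6% of all genes did not overlap in these directions. The intervals of all 38 members other than Psma8 lay within 1.5-fold.

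The catalytic beta subunits did not pass. Psmb5 was at 51.1, 54.1 and 57.5 CPM with BSA and 48.5, 46.6 and 54.4 CPM with CCL26, a log2 fold change of -0.12 (SE 0.0778, edgeR adjusted p = 0.328). Psmb6 was at 188, 171 and 182 CPM with BSA and 170, 174 and 221 CPM with CCL26 (0.065, adjusted p = 0.593). For both genes the groups overlapped, and CCL26 replicate 3 was the highest of its group. Psmb7 had 0.11 (SE 0.0718, adjusted p = 0.321). It shares 405 exon bases with Nek6 on the other strand, where its counts may have gained or lost reads.

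Of the ubiquitin-handling subunits, Psmd14, the lid's deubiquitinase, was nearly level. It was at 131, 131 and 135 CPM with BSA and 134, 129 and 132 CPM with CCL26, and its log2 fold change was -0.0080 with a 95% interval from -0.11 to 0.098 (edgeR adjusted p = 0.946). Psmd4 was at 98.0, 94.2 and 97.7 CPM with BSA and 89.1, 93.6 and 111 CPM with CCL26 (0.017, adjusted p = 0.905). The BSA libraries lay inside the CCL26 range.

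The activators did not pass either. Psme1 was at 88.2, 89.0 and 90.1 CPM with BSA and 89.2, 89.6 and 89.95 CPM with CCL26, the groups overlapping, with a log2 fold change of 0.011 (SE 0.0611, edgeR adjusted p = 0.935). Psme2 was at 110, 125 and 130 CPM with BSA and 133, 122 and 151 CPM with CCL26 (0.16, SE 0.0685, adjusted p = 0.120). The groups of Psme2 overlapped through CCL26 replicate 2, and without that library its adjusted p was 0.0259 at a log2 fold change of 0.23. Psme3 had 0.018 (adjusted p = 0.884) and Psme4 -0.12 (adjusted p = 0.114). Without CCL26 replicate 2 Psme4 had an adjusted p of 0.0395.

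**Figure D5:**
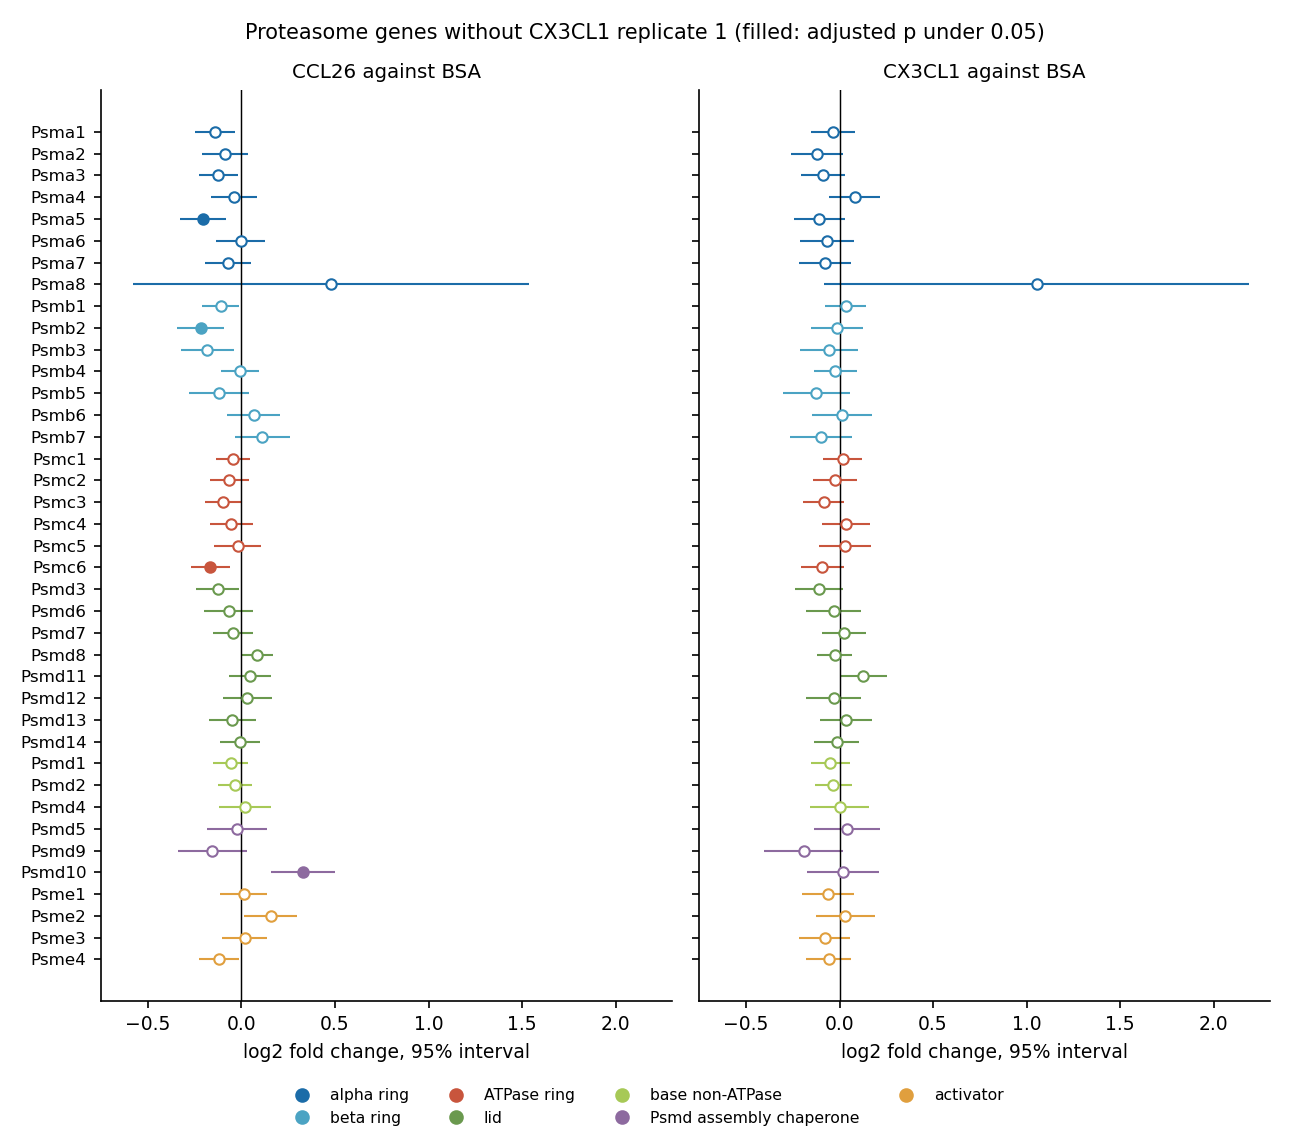
Log2 fold change and 95% interval of each proteasome gene for CCL26 against BSA (left) and CX3CL1 against BSA (right), from 8 libraries, with filled points for an adjusted p under 0.05. Psmd10 is filled to the right and Psma5, Psmb2 and Psmc6 to the left in the CCL26 panel, no point is filled in the CX3CL1 panel, and Psma8 has by far the widest interval in both.

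CCL26 replicate 3 differed from its group in a way that also moved with length. Relative to CCL26 replicates 1 and 2, its shifts over 38 members had a Spearman's rho of -0.529 with transcript length. Their rho with the shifts of CX3CL1 replicate 1 was 0.417. Over all genes the values were -0.125 and 0.164. Set in the same way against the rest of their groups, CCL26 replicates 1 and 2 had member values with length of 0.265 and 0.363, and BSA libraries -0.222 to 0.153. Within a group these values are tied to each other. Each library was also set against the median of the others, CX3CL1 replicate 1 apart. Over all genes, rho with length was then 0.149, 0.155 and 0.0106 for CCL26 replicates 1, 2 and 3. It was -0.137 to -0.0645 for BSA, and -0.0720 and 0.0386 for CX3CL1 replicates 2 and 3. On this measure all CCL26 libraries lay above all BSA libraries. The part of length in the comparison of CCL26 with BSA was not tested. These describe correlations across genes within shared libraries. CCL26 replicate 3 was above the other 7 libraries (CX3CL1 replicate 1 apart) for 7 members and below them for 7, where 17.4% and 18.7% of all genes were. Psmd4 turned from 0.017 to -0.079 and Psmb6 from 0.065 to -0.064 when CCL26 replicate 3 was left out, and the lower members then numbered 5.

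With all 9 libraries the same comparison had 0 members past edgeR's test, against 0.434% of all genes. No member had an unadjusted p under 0.05, where 6.13% of all genes did. DESeq2 and limma-voom called 0 members among 248 and 61 genes called. The fold changes themselves were close to those of 8 libraries: 0.32 for Psmd10, -0.22 for Psmb2, -0.21 for Psma5 and -0.17 for Psmc6. The standard errors were larger, 0.257 for Psmd10 against 0.0828 with 8 libraries, and 0.253 against 0.0603 for Psmb2. CX3CL1 replicate 1 enters this comparison through the spread, the scaling and the filter on low counts shared by all libraries in the fit. The filter also sets the genes over which p is adjusted. With 8 libraries DESeq2 called 1 higher and 5 lower members among 2584 genes called, and limma-voom 1 and 4 among 2502.

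Markers of cell types moved between CCL26 and BSA as well. Their calls are from 8 libraries, where 9.74% of all genes tested were higher and 9.26% lower. The 10 macrophage markers summed to 24273 to 24851 CPM with CCL26 and to 30075 to 30603 CPM with BSA, and 7 of 10 were lower in edgeR's test. Without Lyz2 the sums were 6256 to 6352 CPM against 6871 to 6938 CPM. The 7 neutrophil markers in the table summed to 77.4 to 82.8 CPM against 64.1 to 69.5 CPM, and 2 of 7 were higher. The 6 monocyte markers summed to 77.6 to 87.4 CPM against 89.97 to 98.8 CPM, and 1 of them, F13a1, was lower (-0.25, edgeR adjusted p = 0.0241). The 5 dendritic cell markers in the table summed to 8.96 to 9.98 CPM against 10.2 to 11.9 CPM, and none of the 4 tested passed. Lymphocyte, stromal and erythroid or mast cell lists had 2 of 8, 5 of 8 and 1 of 8 markers in the table, none with a lower or higher call but Kit, which was higher (1.26). Their part in the proteasome values was not tested. In bulk samples, fewer cells of a type and less RNA per cell cannot be told apart.

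The chemokines were also compared with each other. Without CX3CL1 replicate 1, Psmd10 was higher with CCL26 and 0 members were lower, where 5.47% of all genes were higher and 4.64% lower (10.1% in all). Psmd10 was at 36.0 and 33.0 CPM in CX3CL1 replicates 2 and 3, below each of the CCL26 libraries given above. Its log2 fold change was 0.31 (SE 0.0928, edgeR adjusted p = 0.0320). This call was lost without CX3CL1 replicate 2, CX3CL1 replicate 3, CCL26 replicate 1 or CCL26 replicate 2 (adjusted p 0.0857, 0.327, 0.083 and 0.0777) and with only the libraries of both groups in the fit (0.0509).

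Among the lower values, Psmb2 was at 100.03 and 92.6 CPM with CX3CL1 against 80.8, 87.4 and 81.8 CPM with CCL26, a log2 fold change of -0.20 (edgeR adjusted p = 0.0526). Its groups did not overlap. Psmb1, a non-catalytic beta subunit, had -0.14 (adjusted p = 0.0887) and Psmb7 0.21 (adjusted p = 0.108). At an unadjusted p under 0.05 there were 5 of 39 members, 3 higher and 2 lower, where 22.1% of all genes were. DESeq2 called 1 higher and 2 lower members among 1483 genes called, and limma-voom 1 and 0 among 1390. In this comparison 4 higher and 10 lower members did not overlap between the groups, where 18.7% and 18.1% of all genes did not. The median over the members was -0.017, and all 38 intervals but that of Psma8 lay within 1.5-fold.

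With all 9 libraries this comparison had 0 members past edgeR's test, against 0.41% of all genes. DESeq2 and limma-voom called 0 members among 253 and 57 genes called. The median over the members was -0.46, with -0.66 over the core, -0.55 over the ATPases, -0.43 over the lid and -0.15 over the activators. At an unadjusted p under 0.05 there were 2 of 39 members, both lower, Psmb2 with -0.63 and Psmb1 with -0.80, where 11.5% of all genes were. Psmb3, a beta subunit, had -0.88 (SE 0.392) and Psma4, an alpha subunit, -0.56 (SE 0.261), all 4 with an edgeR adjusted p of 0.423.

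Other genes of the pathway were read from 4 lists, for CCL26 against BSA in 8 libraries. Of all genes tested, 9.74% were higher and 9.26% lower in that comparison. Of 11 further subunits and assembly factors in the table, 1 was higher and 1 lower. Pomp, the chaperone that matures the core, was at 102, 96.0 and 103 CPM with BSA and 85.7, 81.5 and 92.5 CPM with CCL26 (-0.21, edgeR adjusted p = 0.0179). Ecpas, which tethers and takes apart the assembled 26S particle, was at 0.18 (adjusted p = 0.0342). The base receptor Adrm1 (-0.12, adjusted p = 0.245) and the small lid subunit Sem1 (-0.15, adjusted p = 0.196) did not pass.

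Of 16 deubiquitinases, ligases and shuttles bound to the proteasome, 4 were lower and 1 higher, against 9.26% and 9.74% of all genes. Zfand2a, an arsenite-inducible zinc finger protein that binds the proteasome, was at 225, 231 and 220 CPM with BSA and 185, 178 and 183 CPM with CCL26 (-0.31, edgeR adjusted p = 1.3e-05). The thioredoxin-like Txnl1 had -0.20 (adjusted p = 0.0119), the shuttle Rad23b -0.13 (adjusted p = 0.0200), and the phosphatase Ublcp1 0.45 (adjusted p = 0.0487). Ubqln4 was the other lower gene.

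Of 10 genes of ubiquitin and its handling, 3 were lower and 1 higher, against 9.26% and 9.74% of all genes. The segregase Vcp was at 613, 614 and 587 CPM with BSA and 536, 509 and 506 CPM with CCL26 (-0.22, edgeR adjusted p = 8.12e-05). The ubiquitin genes Ubb (-0.19, adjusted p = 0.000137) and Rps27a (-0.15, adjusted p = 0.0135) were lower, and Nploc4, a cofactor of Vcp, was higher (0.24, adjusted p = 0.0137).

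The list of regulators of proteasome transcription had 4 higher and 5 lower genes of 14, against 9.74% and 9.26% of all genes. Maff, a small Maf protein that pairs with NRF factors, was at 14.7, 17.1 and 15.6 CPM with BSA and 37.1, 35.3 and 39.5 CPM with CCL26, a log2 fold change of 1.24 (SE 0.104, edgeR adjusted p = 2.14e-09). CCL26 was far above BSA in each library, and Maff was the single gene of the 4 lists called with all 9 libraries too (adjusted p = 0.00577). Nfe2l1, the factor that drives proteasome genes when proteasome activity is low, was at 634, 636 and 660 CPM with BSA and 787, 772 and 863 CPM with CCL26 (0.33, adjusted p = 6.05e-07). Mafg rose by 0.24 (adjusted p = 0.000598), and Bach1, a repressor that competes for Maf partners, was lower (-0.16, adjusted p = 0.00593). The small Maf gene Mafk (-0.25, adjusted p = 0.00661) and Nfe2l2 (-0.13, adjusted p = 0.0333) were lower, however. Foxo4 (-0.42, adjusted p = 0.0086) and Nfyc (-0.28, adjusted p = 0.0196) were also lower, and Nfya was higher (0.22, adjusted p = 0.0448). The 5 members with TGACNNNGC before the start had log2 fold changes of -0.12 (Psmb5), 0.065 (Psmb6), -0.17 (Psmc6), -0.16 (Psmd9) and 0.032 (Psmd12) in this comparison, and of these Psmc6 passed.

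None of the 3 immunoproteasome subunits passed for CCL26 against BSA in 8 libraries: Psmb10 had 0.21 (edgeR adjusted p = 0.0716), Psmb9 0.096 and Psmb8 0.045. In CX3CL1 replicate 1 they were shifted by 1.80, 1.30 and 1.83.

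Counts of several members may have gained or lost reads where genes overlap, as the sources used here do not state a strand setting. Psmd9 shares 1849 exon bases with the non-coding Gm26745, Psmd13 342 with Sirt3 and Psmc3 215 with Slc39a13. Psmd1 shares 252 with Htr2b and, on the same strand, 301 with Gm21972.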

How the data were processed

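Messenger RNA of 9 libraries was measured, 3 per group. The authors deposited 1 table of raw counts per gene, whole numbers and not normalized. Per the submitters' processing notes, STAR, featureCounts and MultiQC were used with the builds GRCm38 and mm10; versions, order and the use of strand are not given in the sources used here. Groups came from the treatment in the sample titles, and columns were matched by sample code, with 0 left unmatched.

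Genes were filtered with filterByExpr, scaled by TMM factors and tested with the quasi-likelihood F test of edgeR 4.0.16 under R 4.3.3 (group as the only term, Benjamini-Hochberg adjustment over all genes tested, threshold 0.05). One fit held 9 libraries (12915 genes), the other 8, without CX3CL1 replicate 1 (13245 genes). Printed CPM values use the factors of 9 libraries. Standard errors were recovered as the fold change on the log2 scale over the root of the F statistic. Transcript lengths and coordinates are from GENCODE M21. The principal transcript was taken as the length after values over the summed exons had been seen; levels and correlations are given with both. Promoters are RefSeq's, with no entry for Psma8, Psmb1, Psmb2, Psmb7, Psmc3, Psmd3 and Psmd7.

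The members, lists, tests and alternatives were chosen with earlier results of these data known. Named members are the 4 with the smallest p in each comparison and fit, the highest and lowest per length in each class, and Psmb5, Psmb6, Psmb7, Psmd4, Psmd14 and the activators. From each of the 4 pathway lists up to 4 genes with the smallest p are named. Beyond this rule, Ubqln4, Mafk, Nfe2l2, Foxo4, Nfyc, Nfya, Kit, F13a1, Lyz2, S100a8, S100a9 and Elane were chosen after their values were seen. So were the genes listed for overlap or promoter motifs beyond it. Chi-square per degree of freedom between replicates was 284 and 336 with CX3CL1 replicate 1 and 3.91 to 8.65 in the other 7 pairs, so none was counted as 1 library. Scripts were tested on simulated counts. Alternatives were DESeq2 size factors, DESeq2 1.42.0, limma-voom (limma 3.58.1), no filter, at least 5 CPM in 3 libraries, fits on the libraries of 2 groups, the replicate number as a block, and leaving out each library. Plots come from matplotlib 3.10.9 under Python 3.11.15.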

Additional observations from a re-analysis of the deposited data

How the results depend on the processing

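For CCL26 against BSA, a fit on only the libraries of these 2 groups called 1 member higher and 4 lower, where the fit on 9 libraries called 0; it leaves out CX3CL1 replicate 1 by construction and is the same fit for either starting set. With 8 libraries, 5 members were lower in that comparison with at least 5 CPM in 3 libraries and 5 with DESeq2, and the median log2 fold change was -0.057 with only the libraries of 2 groups. For CCL26 against CX3CL1 in 8 libraries, 1 member was lower with DESeq2 size factors, 1 with at least 5 CPM in 3 libraries and 2 with DESeq2, and 0 were higher with only the libraries of 2 groups. For these counts in 8 libraries the cause was not tested. In the main fit of 8 libraries 9.74% of all genes were higher and 9.26% lower for CCL26 against BSA. Apart from the DESeq2 totals above, shares of all genes under the alternatives here and below are not given. The counts therefore do not tell whether the members moved more than genes at large. With summed exon length, an alternative chosen after seeing the data, 36 of 39 levels per length moved by more than their SD.

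Leaving out 1 library at a time from 9 gave medians from -0.031 to 0.63 for CX3CL1 against BSA and from -0.69 to -0.017 for CCL26 against CX3CL1, with 0 to 1 member higher in the latter; for CCL26 against BSA 0 to 1 was higher and 0 to 3 were lower, with medians from -0.066 to -0.044. The counts above 0, and the medians nearest 0 in the comparisons with CX3CL1, came without CX3CL1 replicate 1. Leaving out 1 of 8 gave 1 to 2 members higher and 1 to 5 lower for CCL26 against BSA, with medians from -0.064 to -0.041. For CCL26 against CX3CL1 it gave 0 to 2 higher and 0 to 1 lower, with medians from -0.045 to -0.0091. No named member past a threshold turned its direction in any alternative run.

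Same-numbered replicates deviated from their group means with correlations from -0.107 to 0.0796 between groups, and 3 of 9 libraries correlated best with their own number, so the numbers were not taken to pair the libraries. With the replicate number as a block, CCL26 against BSA in 8 libraries had 1 member higher and 4 lower, and CX3CL1 against BSA in 9 libraries had a median of 0.36 and 0 called.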
